A study of Mus musculus with 12 samples.

Results

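TGF-beta is a cytokine that Treg both make and respond to, and 9 genes of its pathway were followed here in open chromatin: the ligand Tgfb1, the docking receptor Lrrc32, the receptors Tgfbr1 and Tgfbr2, the signal carriers Smad2 and Smad3, the inhibitory Smad7 and the co-repressors Ski and Skil. Their regions are all open chromatin regions of the deposited mm9 table that overlap the gene body or the 20 kb on either side of it. For a given gene this choice of regions uses position alone, while the genes were chosen with earlier results of these data known. There were 141 such regions among 118680 in all, from 7 at Smad2 to 25 at Tgfbr2. The assay was ATAC-seq, in which the Tn5 transposase inserts sequencing adapters into accessible DNA. The libraries came from YFP+ Treg of the spleen, or of spleen and lymph nodes, which the purification methods name together. The control genotype (WT) was Foxp3-YFP-Cre, and the other (Ikzf1-cko) was Ikzf1-fl-Foxp3-YFP-Cre, in which the Cre of the Foxp3 gene deletes the floxed Ikzf1, the gene of Ikaros, in Foxp3-expressing cells. Both groups carry the YFP-Cre. Treg were used directly (ex vivo) or after 4 hr on plate-bound anti-CD3 with anti-CD28, giving 4 groups with 3 libraries per group, each made from 100000 cells. Per the methods the sorted cells were divided between these states, so that ex vivo and stimulated libraries of a genotype may share a sort, and the labels do not say which ones do. Age and sex of the mice of these libraries are not given in the sources used here, nor is which part of Ikzf1 was floxed, so the deletion was not checked against the regions.

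TGF-beta is secreted bound to its propeptide. GARP, the product of Lrrc32, holds this latent form on the surface of activated Treg until integrins release it. The released ligand binds the type II receptor, which phosphorylates the type I receptor, and this in turn phosphorylates Smad2 and Smad3, which enter the nucleus with Smad4. Smad7 blocks the activated type I receptor, and Ski and SnoN, the product of Skil, repress Smad targets. In T cells the pathway takes part in the induction of Foxp3 outside the thymus and restrains activation.

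Sequences of 6 regions with called differences are shown first. They are the central 300 bases, from the plus strand of mm9, and capitals mark the letters GGGAA (the core bound by Ikaros), TGACTCA (bound by AP-1), GTAAACA (forkhead factors) and GTCTAGAC (the SMAD palindrome), read on both strands. The first is the region that lost most accessibility on stimulation among those tested at the 9 genes, in both genotypes, and the second rose most without Ikaros ex vivo.
Ski OCR_83916, chr4:154543023-154543322: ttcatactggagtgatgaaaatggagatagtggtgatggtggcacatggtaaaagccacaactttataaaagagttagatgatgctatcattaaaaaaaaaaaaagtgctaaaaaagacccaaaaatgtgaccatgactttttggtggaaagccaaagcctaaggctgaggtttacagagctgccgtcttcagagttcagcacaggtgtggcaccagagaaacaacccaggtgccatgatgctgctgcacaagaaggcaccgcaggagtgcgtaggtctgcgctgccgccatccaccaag
Tgfb1 OCR_99338, chr7:26492769-26493068: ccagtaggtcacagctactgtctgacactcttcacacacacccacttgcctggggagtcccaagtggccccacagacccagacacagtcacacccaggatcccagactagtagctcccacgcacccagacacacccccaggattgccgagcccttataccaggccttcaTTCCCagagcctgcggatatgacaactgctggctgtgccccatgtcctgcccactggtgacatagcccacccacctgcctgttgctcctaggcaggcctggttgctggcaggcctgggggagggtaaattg
The third fell in both genotypes on stimulation and carries 3 of the 4 motifs.
Tgfbr2 OCR_116112, chr9:116062231-116062530: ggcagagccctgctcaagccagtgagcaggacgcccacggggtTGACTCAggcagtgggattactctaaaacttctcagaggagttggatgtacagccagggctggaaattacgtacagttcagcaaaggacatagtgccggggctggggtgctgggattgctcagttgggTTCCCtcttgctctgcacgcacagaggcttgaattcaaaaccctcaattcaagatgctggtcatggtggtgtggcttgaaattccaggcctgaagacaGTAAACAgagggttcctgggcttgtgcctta
The last 3 differed between genotypes ex vivo, lower in Ikzf1-cko Treg at Ski and Skil and higher at Tgfb1.
Ski OCR_83914, chr4:154535458-154535757: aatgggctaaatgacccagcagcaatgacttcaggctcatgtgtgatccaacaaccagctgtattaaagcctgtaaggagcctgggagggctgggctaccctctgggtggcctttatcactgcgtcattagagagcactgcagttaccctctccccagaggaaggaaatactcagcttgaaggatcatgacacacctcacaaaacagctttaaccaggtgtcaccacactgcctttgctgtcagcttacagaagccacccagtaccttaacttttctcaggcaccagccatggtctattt
Skil OCR_70511, chr3:30983867-30984166: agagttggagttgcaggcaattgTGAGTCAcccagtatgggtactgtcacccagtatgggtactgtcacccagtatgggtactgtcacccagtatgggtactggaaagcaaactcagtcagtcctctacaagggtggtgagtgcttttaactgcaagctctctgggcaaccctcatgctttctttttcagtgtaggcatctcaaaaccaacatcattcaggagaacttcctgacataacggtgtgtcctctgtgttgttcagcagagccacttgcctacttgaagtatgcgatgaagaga
Tgfb1 OCR_99337, chr7:26490780-26491079: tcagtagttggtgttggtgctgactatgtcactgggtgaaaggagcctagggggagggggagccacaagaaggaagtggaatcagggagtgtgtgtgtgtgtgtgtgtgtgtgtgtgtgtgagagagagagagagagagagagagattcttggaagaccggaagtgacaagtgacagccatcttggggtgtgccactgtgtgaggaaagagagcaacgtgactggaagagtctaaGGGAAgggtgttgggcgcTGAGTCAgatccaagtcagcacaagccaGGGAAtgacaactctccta
These letters are a description of the sequence and show no binding. Among the 108 regions that were tested at the 9 genes, 67 held GGGAA or its complement TTCCC in their central 300 bases (62.0%), against 59.3% of all 69957 tested regions. The AP-1 letters were found in 17 (15.7%, against 10.6%), the forkhead letters in 7 (6.48%, against 3.77%) and the SMAD palindrome in 1 (0.926%, against 0.307%). The shorter SMAD letters GTCTG, which are not capitalised above, were found in 56 (51.9%, against 55.5%) and occur 5 times in the Tgfb1 region OCR_99338. None of these letter strings contains another. The median GC content of the windows was 53.0% against 51.3% overall.

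Reads on the regions ranged per library from 5197669 to 8596567 in ex vivo WT, from 11698967 to 15355521 in ex vivo Ikzf1-cko, from 4808916 to 6047073 in stimulated WT and from 9221901 to 11465957 in stimulated Ikzf1-cko Treg. Every Ikzf1-cko library was larger than every WT library, so depth and genotype cannot be told apart. For 6 genes that mark Treg and CD4 T cells, 5 of which had a region over the start, the summed level of the regions over or nearest to the starts ranged from 157.9 to 161.8 FPKM in ex vivo WT, 172.5 to 184.6 in ex vivo Ikzf1-cko, 127.9 to 153.9 in stimulated WT and 168.5 to 179.6 in stimulated Ikzf1-cko libraries. None of 4 B cell genes had a region over the start, and the same sum of nearest regions was 38.5 to 40.8 in ex vivo WT and 46.0 to 49.1 in stimulated WT, and 38.3 to 40.6 and 40.7 to 45.0 in Ikzf1-cko. Of 4 myeloid genes 1 had such a region, with sums of 24.0 to 33.4 and 38.2 to 46.2 in WT and 24.0 to 26.6 and 32.7 to 43.6 in Ikzf1-cko. Of 2 erythroid genes 1 had one, with sums of 15.9 to 25.1 and 21.1 to 23.3 in WT and 19.3 to 20.8 and 26.1 to 27.7 in Ikzf1-cko. The pair of CD8 genes had one each, with summed levels of 20.7 to 24.2 FPKM in ex vivo WT and 10.8 to 14.6 in ex vivo Ikzf1-cko, and of 20 to 23.4 and 14.7 to 16.1 after stimulation. The methods isolate CD4+ T cells and then sort for CD4+YFP+ cells. The part of any CD8 T cells or cells of other lineages in the differences below was not tested.

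Levels are given as FPKM, reads on the region scaled by its length and by the library's reads on all regions, and differences as log2 ratios of group means from edgeR's quasi-likelihood fit, with a p adjusted over all tested regions. A region was called when the adjusted p was under 0.05 and the log2 difference over 1 in size. In libraries made from many cells, fewer open cells and less access per cell cannot be told apart. A level of at least 3.6 CPM (counts scaled to the reads on all regions) in 3 libraries was required for a test, and 108 of the 141 regions passed. The other 33 had mean levels of at most 2.93 CPM, the lowest tested region one of 2.84 CPM.

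Ex vivo, Ikzf1-cko Treg had 3 regions called higher than in WT, all of them downstream of Tgfb1, and 4 called lower, 1 each at Smad3, Smad7, Ski and Skil. The 3 higher regions are 2.78% of the 108, where 0.588% of all tested regions were called higher, and the 4 lower ones are 3.70%, where 4.04% were called lower. By the adjusted p alone, 16 regions were higher (14.8%, against 8.78% of all regions) and 14 lower (against 12.7%). The median log2 difference was -0.02 at the 9 genes and -0.13 over all regions. The last value moves with the scaling of the libraries, to -0.02 with TMM and -0.01 after a loess correction against abundance, and with it the calls move to 4 higher and 0 lower under TMM and to 5 higher and 1 lower under loess. Leaving out replicate 2 of ex vivo WT gave 11 calls and leaving out replicate 2 of ex vivo Ikzf1-cko gave 4.

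After stimulation, 1 region was called higher in Ikzf1-cko than in WT Treg, again downstream of Tgfb1, and none lower (edgeR). This is 0.926% of the 108, against 1.16% of all regions called higher and 20.2% called lower. By the adjusted p alone 24 regions were higher (22.2%, against 20.4%) and 14 lower (against 30.7%), with 45 of the 108 at an unadjusted p under 0.05. DESeq2 called 2. The median difference was 0.00, where that of all regions was -0.11 (-0.04 with TMM and 0.00 with loess).

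Stimulation itself lowered accessibility at the 9 genes more often than it raised it. In WT Treg 7 regions were called lower and none higher, where 2.32% and 17.7% of all regions were called so. By the adjusted p alone 40 were lower (37.0%, against 20.7%) and 4 higher (3.70%, against 26.9%). In Ikzf1-cko Treg 4 were called lower and none higher, where 0.632% and 3.02% of all regions were called so, and by the adjusted p alone 35 were lower (32.4%, against 11.5%) and 4 higher (against 12%). In each genotype 49 regions had an unadjusted p under 0.05. Over all 69957 tested regions, 37454 did in WT and 25340 in Ikzf1-cko. The share at the 9 genes was thus lower than over all regions in WT and higher in Ikzf1-cko. The median differences were -0.32 in WT and -0.22 in Ikzf1-cko, beside 0.04 and 0.06 over all regions. Without replicate 2 of stimulated WT, the count of calls in WT rose from 7 to 11. The genotype and stimulation comparisons share libraries, so their values stand side by side and are not independent.

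Abundance bears on these shares. Of the 44 regions at the 9 genes with a mean of at least 10 CPM, 26 fell and 2 rose in WT, where 45.9% and 11.4% of all regions at that level did, and 22 fell and 3 rose in Ikzf1-cko, where 22.7% and 15.2% did. Their median differences were -0.45 and -0.25, beside -0.24 and -0.04 over all regions at that level. Of the 64 less abundant regions, 14 fell and 2 rose in WT, where 9.77% and 33.6% of all regions under 10 CPM did, and 13 fell and 1 rose in Ikzf1-cko, where 6.64% and 10.6% did. By genotype, 12 of the 44 were higher without Ikaros ex vivo (27.3%, against 19.5% of all regions at that level) and 3 lower (against 8.28%). After stimulation 20 were higher (45.5%, against 51.4%) and 2 lower (against 6.57%). The medians after stimulation were 0.23 at the 9 genes and 0.28 over all regions at that level.

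By position, 55 of the tested regions at the 9 genes were in introns. Of these 26 fell and 1 rose in WT on stimulation (47.3% and 1.82%, against 22.6% and 21.4% of all intron regions), with a median of -0.48, and 25 fell and 1 rose in Ikzf1-cko (45.5% and 1.82%, against 14.0% and 7.96%), with a median of -0.37. Of the 33 intergenic regions 11 fell and 2 rose in WT (33.3% and 6.06%, against 17.2% and 33.7%), and 7 fell and 1 rose in Ikzf1-cko (21.2% and 3.03%, against 10.6% and 10.5%). The 12 regions over the start of any gene had medians of 0.01 in WT and -0.03 in Ikzf1-cko. Of these 1 fell and 1 rose in WT, where 25.9% and 23.6% of all start regions did, and 3 fell and 2 rose in Ikzf1-cko, where 9.49% and 21.1% did. The difference between positions was not tested. In the plot of stimulation differences by distance, the called regions lie away from the start sites.

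**Figure D1:**
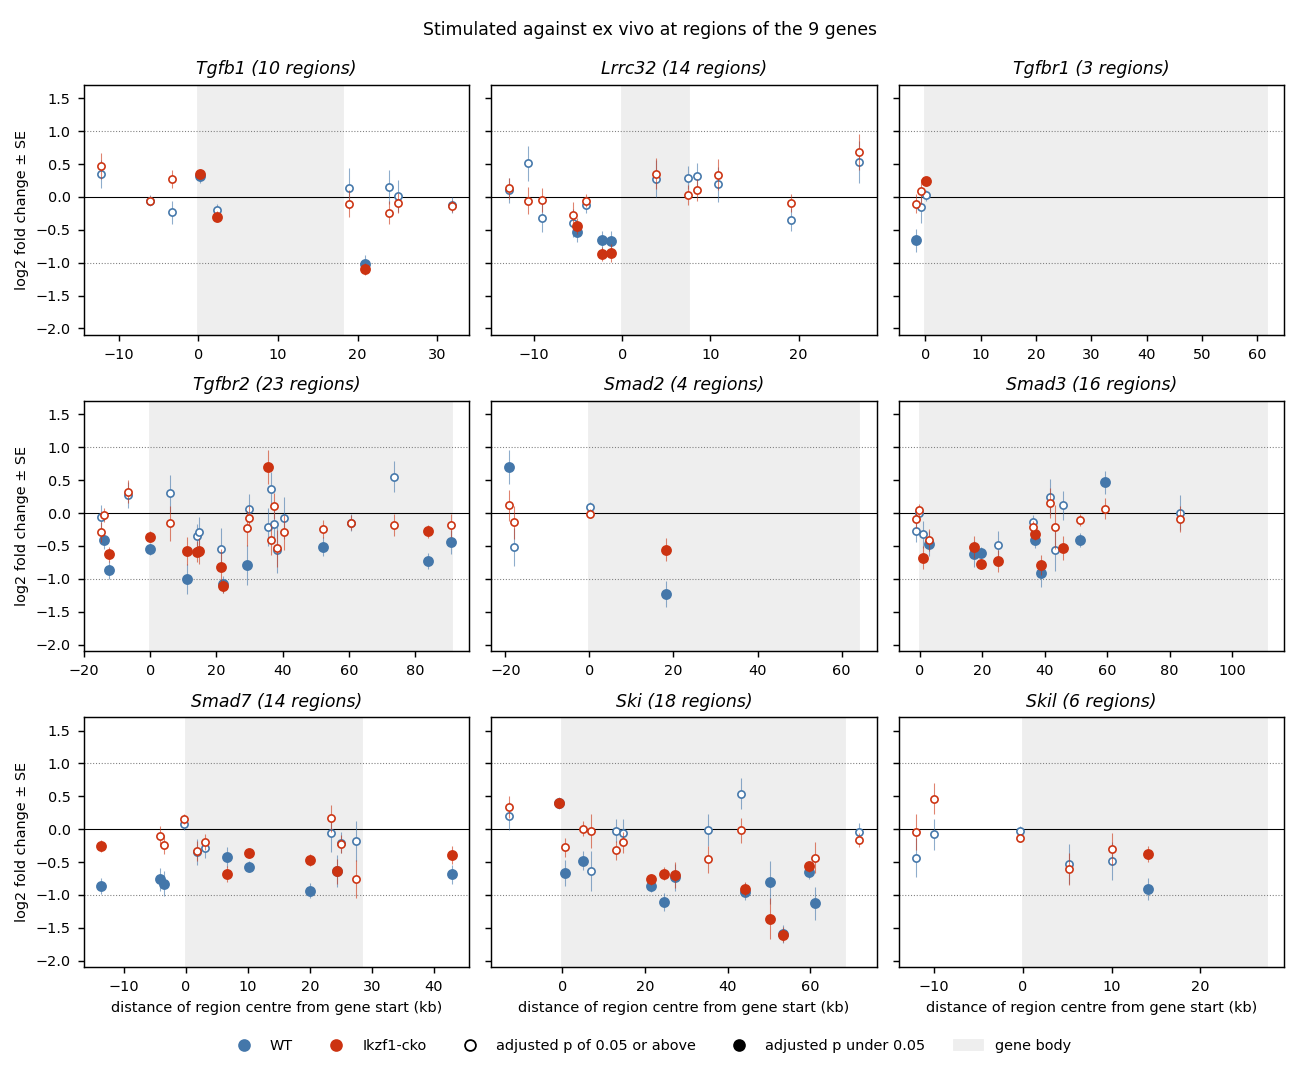
Log2 difference on stimulation (y axis) of each tested region at the 9 genes by its distance from the gene's start in kb (x axis), 1 panel per gene, for WT and for Ikzf1-cko Treg, with bars of 1 SE, filled points at an adjusted p under 0.05 and the gene body in grey. The lowest points lie 53.5 kb into Ski, at -1.60 in WT and -1.61 in Ikzf1-cko, while the 12 regions over gene starts have medians of 0.01 and -0.03.

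The gene starts were open in all 4 groups, at unequal levels. For each gene the region over its start, or the nearest one at Lrrc32 (972 bases away) and Ski (340 bases away), was taken, and where several lay over starts the one with the highest mean. At Tgfb1 this was OCR_99336, 2.4 kb within the gene, while OCR_99335 lies over its first start. In ex vivo WT, Smad2 was highest at 70.2 ± 5.31 FPKM (SD, n = 3), followed by Ski at 59.2 ± 3.58, Skil at 58.9 ± 5.04 and Tgfbr1 at 50.2 ± 4.76. Tgfb1 had 37.8 ± 3.51, Smad7 30.5 ± 2.58, Tgfbr2 28.8 ± 2.90, Lrrc32 24.2 ± 0.72 and Smad3 22.9 ± 0.92. The libraries of Ski and Skil overlapped in their levels, as did those of Smad7 and Tgfbr2 and those of Lrrc32 and Smad3. All 9 means were above 10.4 FPKM, the median of all tested regions.

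**Figure D2:**
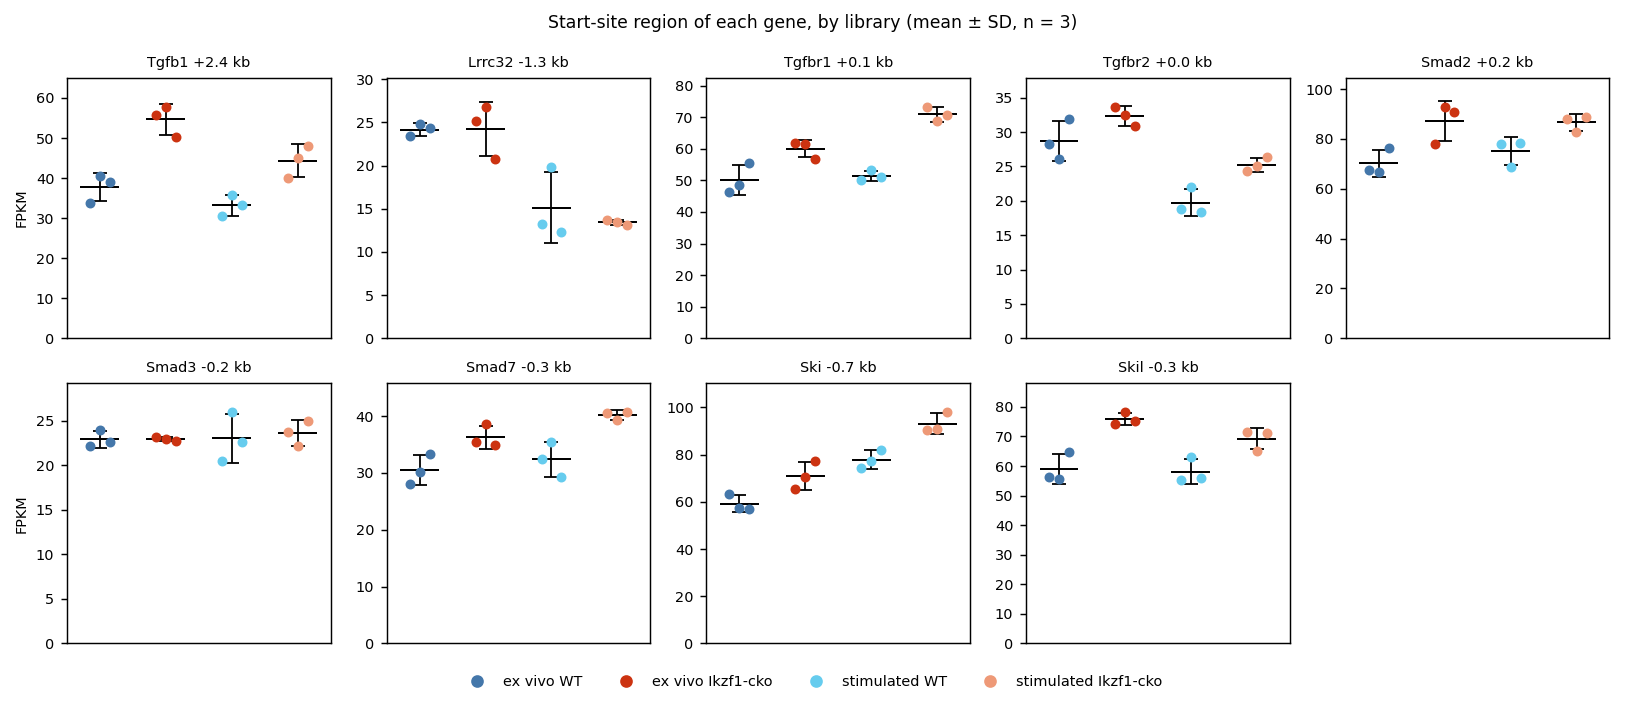
FPKM (y axis) of the start region, or the nearest one, of each of the 9 genes in every library (points), with the mean and SD of each group of 3. In Ikzf1-cko Treg the points of Tgfb1 (OCR_99336, 2.4 kb within the gene) lie above the WT points in both states, and the Smad3 points overlap in all 4 groups.

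The ligand gene held the largest rises without Ikaros. Of the 10 regions at Tgfb1, all of them tested, 6 were higher in Ikzf1-cko than in WT Treg ex vivo by the adjusted p and 1 lower, and the same counts held after stimulation. Of all tested regions 8.78% were higher and 12.7% lower ex vivo, and 20.4% and 30.7% after stimulation. The region over the start of a Tgfb1 transcript, OCR_99336 (chromosome 7, 26473800 to 26474989), had 33.8, 40.4 and 39.1 FPKM in ex vivo WT and 55.8, 57.8 and 50.3 in ex vivo Ikzf1-cko Treg. After stimulation it had 30.4, 35.8 and 33.4 in WT and 40.1, 44.9 and 48.1 in Ikzf1-cko. The Ikzf1-cko libraries were above the WT libraries in both states, without overlap. The log2 difference was 0.52 ± 0.09 (SE, adjusted p = 4.6e-05) ex vivo, and past the threshold under all 22 alternatives. After stimulation it was 0.42 ± 0.09 (adjusted p = 4.1e-04), and 0.07 under loess. OCR_99335, over the first Tgfb1 start and named after its values were seen, had means of 32.8 FPKM in ex vivo WT, 36.7 in ex vivo Ikzf1-cko, 40.9 in stimulated WT and 46.6 in stimulated Ikzf1-cko. It passed no genotype test and rose on stimulation, by 0.31 in WT (adjusted p = 0.0075) and by 0.35 in Ikzf1-cko (adjusted p = 0.0017).

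The region that changed most at Tgfb1 was OCR_99338, an intergenic region 20.9 kb from the start (chromosome 7, 26492320 to 26493516), whose central sequence is printed above. It had 21.9, 22.8 and 20.1 FPKM in ex vivo WT and 49.7, 48.6 and 40.5 in ex vivo Ikzf1-cko libraries. Stimulated WT libraries had 9.12, 10.7 and 12.2, and stimulated Ikzf1-cko libraries 24.2, 18.9 and 21.9. The Ikzf1-cko libraries were higher in each state and the stimulated lower in each genotype, so that stimulated Ikzf1-cko Treg stood at the level of ex vivo WT Treg. Ex vivo the genotype difference was 1.11 ± 0.10 (2.15-fold, adjusted p = 4.8e-09), a call under all 22 alternatives. After stimulation it was 1.03 ± 0.13 (adjusted p = 5.3e-07), and under 1 without replicate 1 of stimulated WT (0.93) or of stimulated Ikzf1-cko (0.95), with loess (0.74) and in limma (0.96). The fall on stimulation was -1.03 ± 0.14 in WT (adjusted p = 9.1e-07), or -0.79 under loess, -0.96 in limma, -0.98 without replicate 2 of ex vivo WT and -0.92 without replicate 1 of stimulated WT. It was -1.10 ± 0.10 in Ikzf1-cko (adjusted p = 9.0e-10), a call under all 22 alternatives. The test of the difference between the falls gave -0.07 (adjusted p = 0.83).

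Its neighbours moved with it by genotype. OCR_99337, intergenic at 18.9 kb (26490771 to 26491087), had 5.46, 7.52 and 7.71 FPKM in ex vivo WT and 14.6, 15.8 and 12.1 in ex vivo Ikzf1-cko, groups that do not overlap. The difference was 1.01 ± 0.24 (adjusted p = 0.0034), from few reads, 9 to 71 per library. It was 0.95 in limma, 0.999 with a replicate block, 0.90 without replicate 1 of ex vivo WT, and 0.99 and 0.93 without replicates 1 and 2 of ex vivo Ikzf1-cko. OCR_99340, at 25 kb in an exon of the neighbouring gene Ccdc97 (26496763 to 26497273), had 12.1, 10.9 and 6.15 FPKM in ex vivo WT and 22.4, 18.1 and 17.1 in ex vivo Ikzf1-cko. That difference was 1.04 ± 0.19 (adjusted p = 1.8e-04), or 0.76 without replicate 3 of ex vivo WT and 0.91 without replicate 1 of ex vivo Ikzf1-cko. It was 0.86 with thinned counts and 0.95 in limma. OCR_99337 and OCR_99338 lie between Tgfb1 and Ccdc97 and OCR_99340 within Ccdc97, and which gene any of them acts on was not measured. The most abundant region of the window, OCR_99333, lies over the start of the neighbouring gene B9d2, with means of 56.4 FPKM in ex vivo WT and 67.0 in ex vivo Ikzf1-cko (log2 0.24, adjusted p = 0.018), and 54.5 and 64.2 after stimulation (0.24, adjusted p = 0.011). Under loess these were 0.10 (adjusted p = 0.32) and -0.13. The ex vivo difference also missed the threshold with thinned counts and without replicate 1 or 2 of ex vivo WT or replicate 2 of ex vivo Ikzf1-cko (0.20 to 0.23), and the stimulated one without replicate 1 of stimulated WT (0.21). The plot by distance shows the group just beyond the gene body in the Tgfb1 panel.

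**Figure D3:**
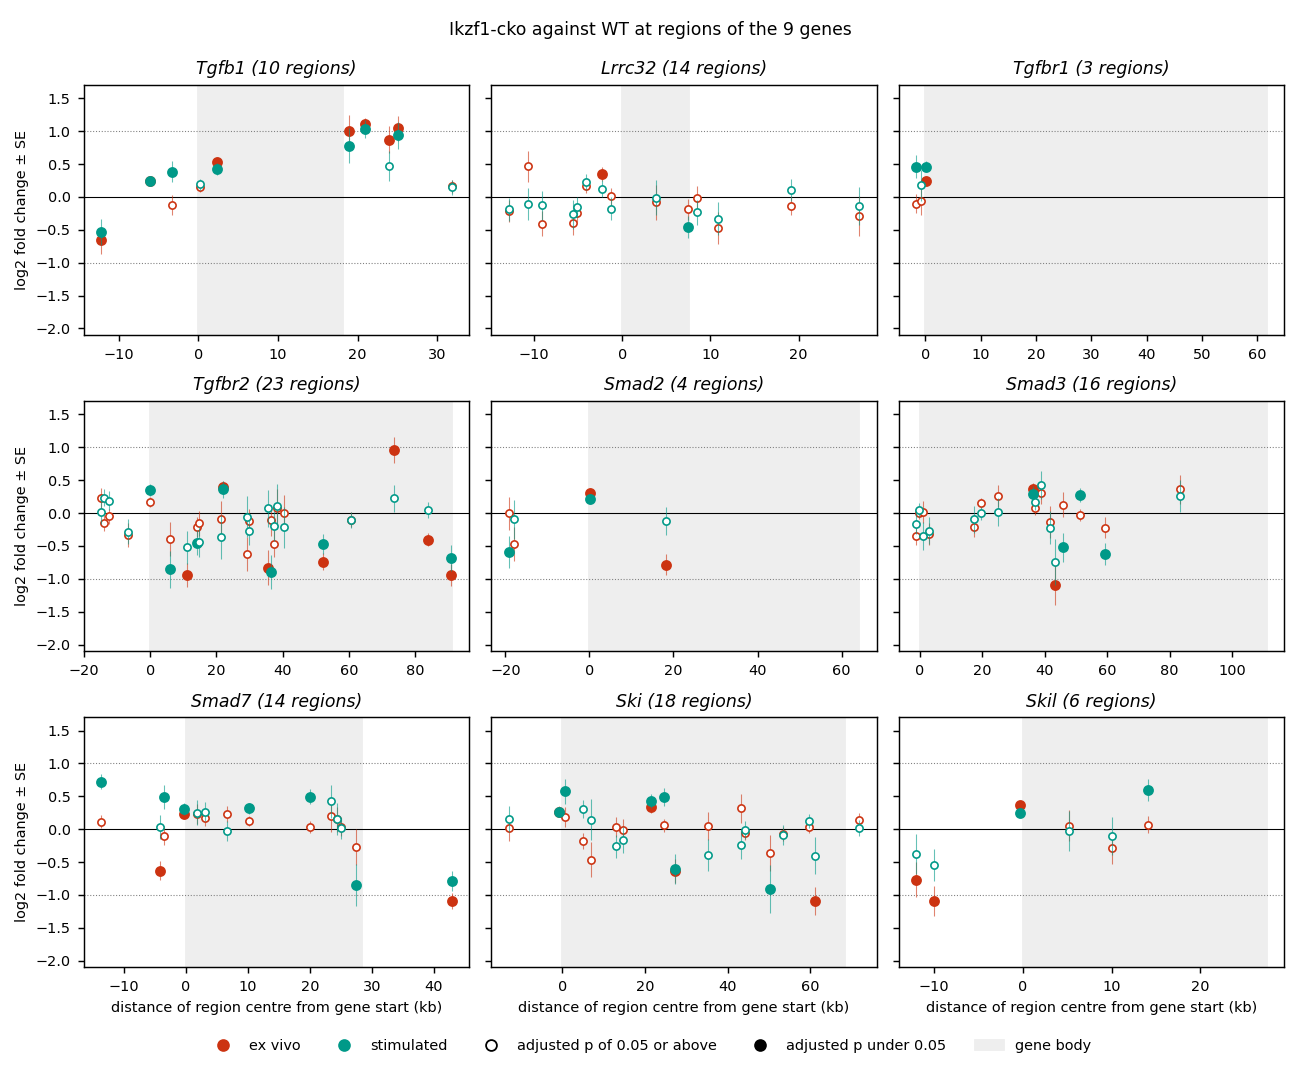
Log2 difference of Ikzf1-cko against WT (y axis) of each tested region at the 9 genes by its distance from the gene's start in kb (x axis), 1 panel per gene, ex vivo and after stimulation, with bars of 1 SE, filled points at an adjusted p under 0.05 and the gene body in grey. At Tgfb1 the regions from 18.9 to 25 kb rise to 1.11 ex vivo, while the lowest ex vivo points lie at Ski (-1.10), Smad3, Smad7 and Skil (-1.09 each).

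At Lrrc32, the gene of GARP, few regions differed by genotype. Of its 14 tested regions 1 was higher ex vivo by the adjusted p and none lower, and 1 was lower after stimulation. Of all tested regions 8.78% were higher and 12.7% lower ex vivo, and 20.4% and 30.7% after stimulation. OCR_102589, the region nearest to the start (chromosome 7, 105641135 to 105641760), had 23.4, 24.8 and 24.3 FPKM in ex vivo WT, 25.2, 26.8 and 20.8 in ex vivo Ikzf1-cko, 13.2, 19.8 and 12.3 in stimulated WT and 13.7, 13.5 and 13.1 in stimulated Ikzf1-cko libraries. The genotypes overlapped ex vivo and after stimulation, and each stimulated library was below each ex vivo library. The fall was -0.68 ± 0.16 in WT (adjusted p = 0.0012) and -0.86 ± 0.14 in Ikzf1-cko (adjusted p = 2.4e-05). The next region upstream, OCR_102588, fell as well, from a mean of 39.0 to 24.9 FPKM in WT (log2 -0.65, adjusted p = 2.6e-04) and from 49.8 to 27.2 in Ikzf1-cko (-0.87, adjusted p = 4.7e-07). It was the one Lrrc32 region higher in Ikzf1-cko ex vivo, by 0.35 (adjusted p = 0.021), and is named after its values were seen. The most abundant region, OCR_102587, 4.1 kb upstream, had means of 23.5, 26.5, 21.7 and 25.5 FPKM in WT and Ikzf1-cko Treg ex vivo and in WT and Ikzf1-cko Treg after stimulation, and passed no test.

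Of the receptor genes, Tgfbr1 encodes the type I receptor, whose kinase phosphorylates Smad2 and Smad3. Its start region OCR_78505 had 46.4, 48.6 and 55.5 FPKM in ex vivo WT, 61.7, 61.4 and 56.9 in ex vivo Ikzf1-cko, 50.1, 53.3 and 51.1 in stimulated WT and 73.4, 68.8 and 70.7 in stimulated Ikzf1-cko libraries. The Ikzf1-cko libraries were higher in both states, by 0.25 (adjusted p = 0.016) ex vivo and by 0.46 ± 0.08 (adjusted p = 1.8e-05) after stimulation. Under loess these were 0.10 (adjusted p = 0.29) and 0.08 (adjusted p = 0.38), and the ex vivo difference also missed the threshold with thinned counts and without replicate 1 or 2 of either ex vivo group (0.20 to 0.23). Only 3 of the 8 regions at Tgfbr1 had reads enough for a test.

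Tgfbr2, the gene of the ligand-binding type II receptor, had the most regions, 25 with 23 tested, and 19 of the 25 were in introns. Stimulation lowered 9 of them in WT and 8 in Ikzf1-cko by the adjusted p, and raised 0 and 1 (edgeR). At the start, OCR_116118 had a mean of 28.8 ± 2.90 FPKM in ex vivo WT and 19.7 ± 1.99 in stimulated WT (SD, n = 3), a fall of -0.55 (adjusted p = 2.8e-05). In Ikzf1-cko it had 32.3 ± 1.43 and 25.2 ± 0.98, a fall of -0.36 (adjusted p = 0.0011). In the intron, 22.0 kb from the start, OCR_116112 (chromosome 9, 116061861 to 116062899) had 22.2, 21.7 and 24.5 FPKM in ex vivo WT and 10.2, 10.6 and 11.8 in stimulated WT. In Ikzf1-cko it had 31.7, 30.9 and 27.5 ex vivo and 13.2, 14.4 and 14.0 after stimulation. All stimulated libraries were below all ex vivo ones. The fall was -1.08 ± 0.13 in WT (adjusted p = 1.1e-07; -0.84 under loess) and -1.12 ± 0.10 in Ikzf1-cko (adjusted p = 1.6e-09), the latter a call under all 22 alternatives. By genotype 5 of the 23 tested Tgfbr2 regions were lower and 2 higher without Ikaros in each state, by the adjusted p. Of all tested regions 12.7% were lower and 8.78% higher ex vivo, and 30.7% and 20.4% after stimulation.

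Of the signal carriers, Smad2 had its highest region over the start. OCR_56670 had a mean of 70.2 FPKM in ex vivo WT, 87.2 in ex vivo Ikzf1-cko, 75.0 in stimulated WT and 86.6 in stimulated Ikzf1-cko Treg. The genotype difference was 0.31 ex vivo (adjusted p = 0.0030) and 0.21 after stimulation (adjusted p = 0.021). Under loess the first was 0.13 (adjusted p = 0.15) and the second turned to -0.21 (adjusted p = 0.013), and the second missed the threshold without replicate 2 of stimulated WT (0.15) or replicates 1 or 3 of stimulated Ikzf1-cko (0.20 and 0.19). An intron region at 18.2 kb, OCR_56672, moved the other way, with 23.2, 19.1 and 20 FPKM in ex vivo WT, 13.2, 10.3 and 12.2 in ex vivo Ikzf1-cko, 10.6, 8.76 and 6.65 in stimulated WT and 6.36, 8.31 and 9.29 in stimulated Ikzf1-cko. Ex vivo WT stood above the other 3 groups. The fall on stimulation was -1.23 ± 0.20 in WT (adjusted p = 1.3e-05), a call under all 21 alternatives that tested it, and -0.56 in Ikzf1-cko (adjusted p = 0.019), and the difference between genotypes ex vivo was -0.79 (adjusted p = 6.2e-04). The test of unequal falls did not pass (0.67, adjusted p = 0.12).

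Smad3 has a pair of start regions. OCR_113801, at the first start, had means of 22.9, 23.0, 23.0 and 23.6 FPKM in WT and Ikzf1-cko Treg ex vivo and in WT and Ikzf1-cko Treg after stimulation, and its log2 difference was within 0.04 of 0 in each genotype and stimulation comparison, none past the test. OCR_113786, over a start 46.0 kb within the gene and named after its values were seen, had 8.40, 11.2 and 9.47 FPKM in stimulated WT and 7.79, 6.24 and 6.26 in stimulated Ikzf1-cko, without overlap, on 26 to 41 reads (log2 -0.52 ± 0.22, adjusted p = 0.046). It also fell on stimulation in Ikzf1-cko, by 0.53 (adjusted p = 0.038). Away from these starts, stimulation lowered regions of both genotypes. Of the 16 tested at Smad3, 6 fell and 1 rose in WT, and 7 fell in Ikzf1-cko. The most abundant, OCR_113794 at 19.7 kb, went from 24.9 ± 1.20 to 16.2 ± 0.99 FPKM in WT (log2 -0.61, adjusted p = 5.7e-06) and from 27.6 ± 1.61 to 16.1 ± 0.70 in Ikzf1-cko (-0.78, adjusted p = 2.0e-08). The region called by genotype, OCR_113787 at 43.2 kb (chromosome 9, 63562438 to 63562696), had 16.3, 17.4 and 17.5 FPKM in ex vivo WT and 7.54, 6.74 and 9.90 in ex vivo Ikzf1-cko Treg. The groups do not overlap, but the 12 libraries had only 14 to 39 reads on it. The difference of -1.09 ± 0.31 (adjusted p = 0.011) was -0.98 under TMM and -0.57 under loess (adjusted p = 0.13). Without replicate 2 of ex vivo Ikzf1-cko it was -0.98 (adjusted p = 0.057).

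The inhibitor Smad7 lost accessibility on stimulation at 8 of its 14 tested regions in WT and at 6 in Ikzf1-cko, and gained it at none by the adjusted p (edgeR). Its start region OCR_56595 was not among them. It had means of 30.5 FPKM in ex vivo WT, 36.2 in ex vivo Ikzf1-cko, 32.4 in stimulated WT and 40.2 in stimulated Ikzf1-cko, so it was higher without Ikaros by 0.24 ex vivo (adjusted p = 0.037) and by 0.31 after stimulation (adjusted p = 0.0035), but 0.11 (adjusted p = 0.33) and -0.05 under loess. The ex vivo difference passed under 14 of 22 alternatives, and not with thinned counts, in limma or without replicate 1 or 2 of either ex vivo group (0.19 to 0.26). OCR_56599, the most abundant region, in the intron at 10.2 kb, had means of 42.7 and 28.8 FPKM in ex vivo and stimulated WT and 46.5 and 36.0 in Ikzf1-cko. It fell by 0.57 in WT and by 0.37 in Ikzf1-cko on the log2 scale, both past the threshold.

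At the far side of Smad7, 42.9 kb from the start, the intergenic region OCR_56605 (chromosome 18, 75569665 to 75570490) had the highest level of those called lower without Ikaros. It had 27.0, 27.4 and 27.7 FPKM in ex vivo WT, 14.3, 13.6 and 10.4 in ex vivo Ikzf1-cko, 15.4, 17.9 and 17.9 in stimulated WT and 10.8, 8.50 and 10.2 in stimulated Ikzf1-cko. The genotypes did not overlap in either state. The difference was -1.09 ± 0.12 ex vivo (adjusted p = 1.95e-07) and -0.79 after stimulation (adjusted p = 1.0e-04). The first was a call under 19 of 22 alternatives. It was -0.97 under TMM and without replicate 3 of ex vivo Ikzf1-cko, and -0.999 in DESeq2.

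OCR_56592, intergenic and 13.7 kb upstream of Smad7 (75513030 to 75513929), was the region whose response to stimulation differed by genotype, the one among 108 (0.926%) at an adjusted p under 0.05 for the interaction, where 7.48% of all regions had one. It is named here after its values were seen. It had 43.4, 44.2 and 48.6 FPKM in ex vivo WT, 55.7, 50.7 and 41.2 in ex vivo Ikzf1-cko, 22.4, 27.0 and 25.9 in stimulated WT and 40.8, 38.7 and 44.3 in stimulated Ikzf1-cko libraries. Stimulated WT stood apart below the other 3 groups. The genotype difference was 0.12 ex vivo (adjusted p = 0.38) and 0.72 ± 0.11 after stimulation (adjusted p = 9.0e-06). The fall was -0.87 in WT (adjusted p = 9.5e-07) and -0.26 in Ikzf1-cko (adjusted p = 0.041), and the interaction was 0.61 ± 0.15 (adjusted p = 0.012). The interaction was 0.39 under loess (adjusted p = 0.088), 0.55 without replicate 3 of ex vivo WT (0.055) or of stimulated Ikzf1-cko (0.052), and 0.53 without replicate 1 of stimulated WT (0.061). No region at the 9 genes passed both thresholds for the interaction, where 1.98% of all regions did, and 17 had an unadjusted p under 0.05. Over all 69957 tested regions 17108 had one, a larger share.

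**Figure D4:**
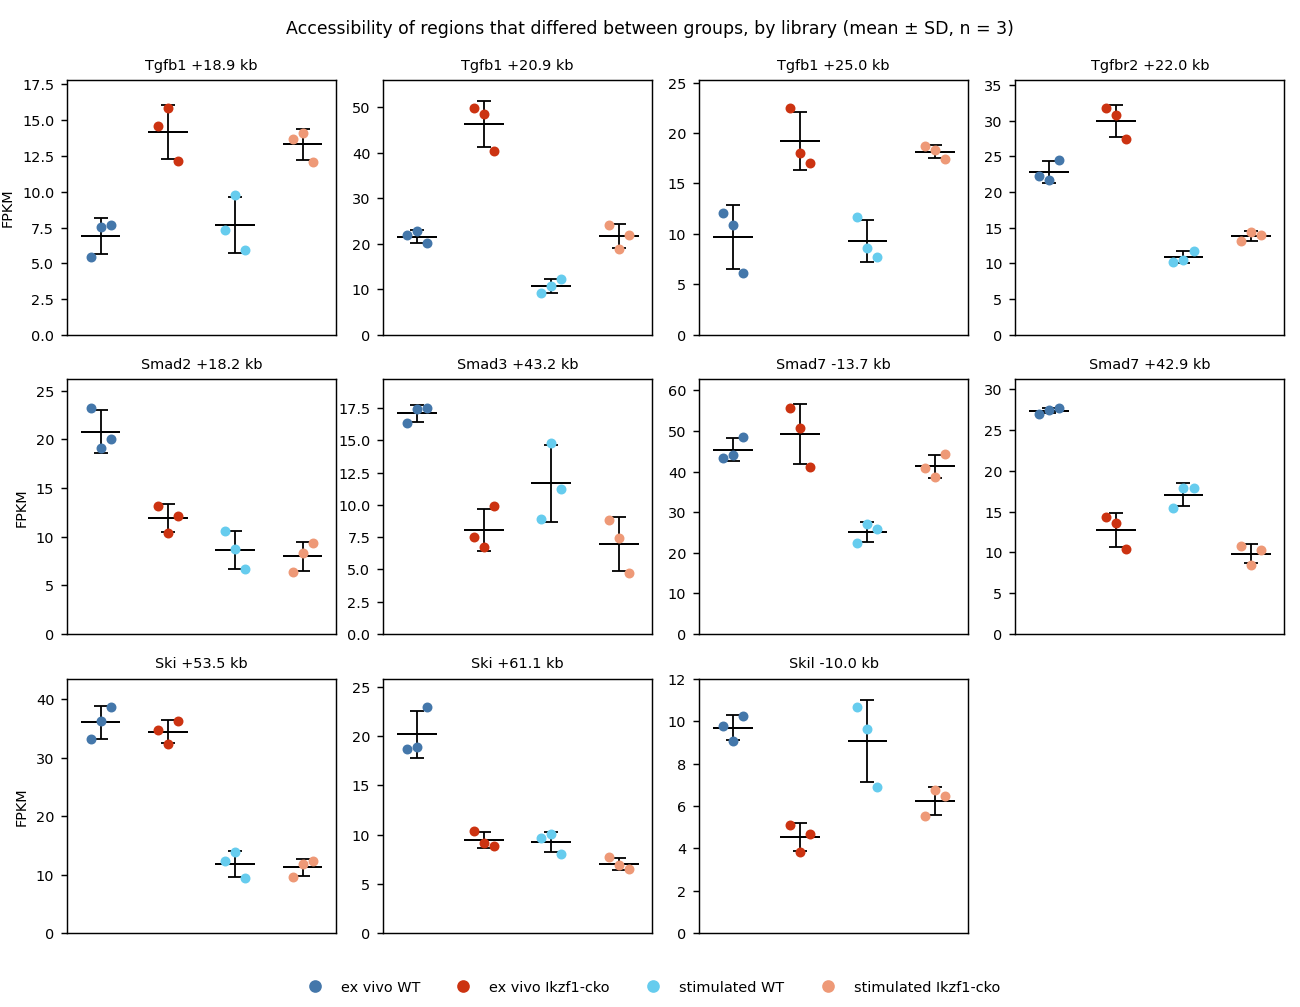
FPKM (y axis) in every library (points, with group mean and SD) of single regions named in the text. Ikzf1-cko points lie above WT points at OCR_99338 (Tgfb1, 20.9 kb from the start) in both states, and stimulated points lie below ex vivo points of both genotypes at OCR_83916 (Ski, 53.5 kb).

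The co-repressor gene Ski had the largest fall on stimulation. OCR_83916, in the intron 53.5 kb from the start (chromosome 4, 154542723 to 154543622), had 33.1, 36.2 and 38.6 FPKM in ex vivo WT and 34.7, 32.4 and 36.3 in ex vivo Ikzf1-cko libraries. After stimulation it had 12.3, 13.8 and 9.47 in WT and 9.64, 11.8 and 12.3 in Ikzf1-cko. The genotypes overlapped in both states, and all stimulated libraries were below all ex vivo libraries. The fall was -1.60 ± 0.13 in WT (3.03-fold, adjusted p = 1.5e-10) and -1.61 ± 0.11 in Ikzf1-cko (adjusted p = 1.3e-11), calls under all 22 alternatives. The genotype difference was -0.07 ex vivo (adjusted p = 0.61) and -0.08 after stimulation (adjusted p = 0.68).

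Most Ski regions that changed on stimulation fell, and the one nearest to the start rose. Of 18 tested regions at Ski, 10 fell in WT and 7 in Ikzf1-cko by the adjusted p, and 1 rose in each, the one nearest to the start. This region, OCR_83931, had 63.3, 57.3 and 57.0 FPKM in ex vivo WT, 65.3, 70.6 and 77.2 in ex vivo Ikzf1-cko, 74.4, 77.1 and 82.0 in stimulated WT and 90.5, 90.6 and 98.1 in stimulated Ikzf1-cko libraries. The rise was 0.40 ± 0.09 in WT (adjusted p = 4.0e-04) and 0.39 ± 0.07 in Ikzf1-cko (adjusted p = 1.8e-04), past the threshold under all 22 alternatives. It was also higher without Ikaros, by 0.27 ex vivo (adjusted p = 0.016) and by 0.26 after stimulation (adjusted p = 0.0066), but 0.13 (adjusted p = 0.27) and -0.11 under loess. The ex vivo difference also missed the threshold without replicate 2 or 3 of ex vivo WT (0.25 and 0.24) or replicate 3 of ex vivo Ikzf1-cko (0.21).

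The region called lower without Ikaros at Ski was OCR_83914, in the intron at 61.1 kb (154535453 to 154535761). Ex vivo it had 18.7, 18.9 and 23.0 FPKM in WT and 10.3, 9.17 and 8.85 in Ikzf1-cko, and after stimulation 9.63, 10.1 and 8.08 in WT and 7.72, 6.92 and 6.49 in Ikzf1-cko. The difference ex vivo was -1.10 ± 0.21 (adjusted p = 4.2e-04), and -0.98 under TMM or without replicate 3 of ex vivo WT. It was -0.79 under loess and -0.62 with counts thinned to the smallest library (adjusted p = 0.15). In WT it fell by 1.12 on stimulation (adjusted p = 5.7e-04). Other intron regions called on stimulation, named after their values were seen, were OCR_83923 at Ski (-1.11 in WT, adjusted p = 1.3e-07; -0.87 under loess), OCR_83917 at Ski (-1.36 in Ikzf1-cko, adjusted p = 0.0016) and OCR_116116 at Tgfbr2 (-1.003 in WT, adjusted p = 5.6e-04). The last was -0.90 without replicate 3 of ex vivo WT, -0.85 without replicate 3 of stimulated WT, -0.93 with thinned counts and -0.95 in limma.

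Skil, the gene of SnoN, was more open at its start without Ikaros ex vivo, and after stimulation except under loess. By the adjusted p 16.4% of all start regions were higher ex vivo and 41.8% after stimulation. OCR_70512 had a mean of 58.9 ± 5.04 FPKM in ex vivo WT and 76.0 ± 2.09 in ex vivo Ikzf1-cko, 58.1 ± 4.26 in stimulated WT and 69.2 ± 3.55 in stimulated Ikzf1-cko (SD, n = 3). The difference was 0.36 ± 0.07 ex vivo (adjusted p = 2.0e-04) and 0.25 after stimulation (adjusted p = 0.0027), the latter -0.18 under loess (adjusted p = 0.017). OCR_70511, intergenic and 10.0 kb upstream (chromosome 3, 30983761 to 30984271), went the other way, with 9.79, 9.07 and 10.2 FPKM in ex vivo WT and 5.10, 3.84 and 4.68 in ex vivo Ikzf1-cko. These groups did not overlap, on 17 to 45 reads per library over all 12. The difference was -1.09 ± 0.23 (adjusted p = 0.0010), or -0.98 without replicate 2 of ex vivo Ikzf1-cko. It was -0.97 under TMM, -0.86 under loess and -0.955 in limma on log2(FPKM + 1).

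Reads summed over all regions of a gene's window, in CPM, give each gene 1 value per library, tested over 27532 gene windows at an adjusted p under 0.05. Ex vivo 3 of the 9 genes were higher without Ikaros and none lower, where 11.9% and 11.1% of all genes were. Tgfb1 had 201.1, 212.5 and 210.2 CPM in WT and 283.7, 289.6 and 270.6 in Ikzf1-cko, a log2 difference of 0.44 (adjusted p = 1.2e-04), and the others were Skil (0.22, adjusted p = 0.028) and Smad2 (0.19, adjusted p = 0.048), which under loess were 0.13 (adjusted p = 0.095) and 0.10 (adjusted p = 0.33). After stimulation 5 were higher and none lower, against 35.3% and 27.1% of all genes: Tgfbr1 (0.39), Tgfb1 (0.34), Smad7 (0.27), Skil (0.19) and Ski (0.13). Of these Tgfb1 was 0.04 under loess (adjusted p = 0.38), and Smad7, Skil and Ski turned to -0.04, -0.09 and -0.19. The count ex vivo was 1 without replicate 1 or 2 of ex vivo WT or replicate 2 of ex vivo Ikzf1-cko, and the count after stimulation was 3 without replicate 1 or 3 of either stimulated group. The ex vivo WT and Ikzf1-cko libraries of Tgfb1 did not overlap.

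On stimulation 4 gene windows fell in WT, against 27.4% of all genes, and none rose, against 32.5%. They were Smad7 (-0.49), Tgfbr2 (-0.44), Ski (-0.42) and Smad3 (-0.28), of which Ski was -0.08 and Smad3 -0.02 under loess. In Ikzf1-cko 6 fell, against 9.57% of all genes, and none rose, against 21.8%. Without replicate 2 of stimulated WT 7 fell in WT, and without replicate 2 of ex vivo Ikzf1-cko 3 fell in Ikzf1-cko. The 6 were Ski (-0.35), Tgfbr2 (-0.34), Smad3 (-0.31), Smad7 (-0.25), Lrrc32 (-0.23) and Tgfb1 (-0.19), of which Lrrc32 was -0.05 (adjusted p = 0.65) and Tgfb1 -0.11 (adjusted p = 0.13) with windows of 50 kb. None of the 9 passed the interaction test, where 16.6% of all genes did in either direction.

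**Figure D5:**
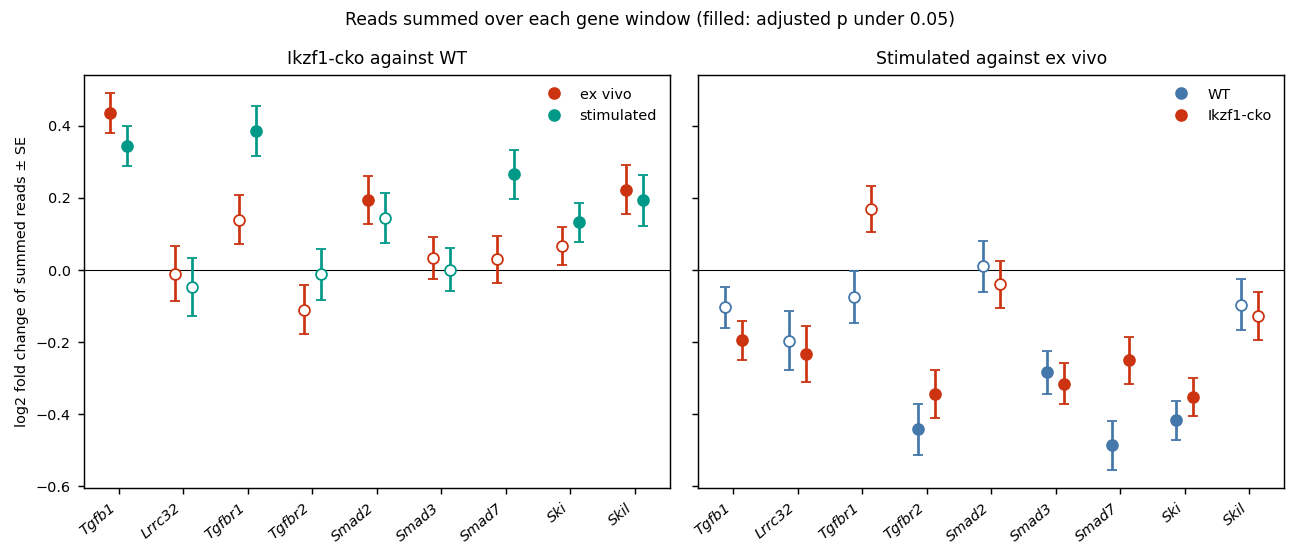
Log2 difference of the reads summed over the window (y axis) of each of the 9 genes (x axis), with bars of 1 SE and filled points at an adjusted p under 0.05. The left panel sets Ikzf1-cko against WT, ex vivo and after stimulation. The right panel sets stimulated against ex vivo, in WT and in Ikzf1-cko. Tgfb1 lies at 0.44 ex vivo and 0.34 after stimulation in the left panel. In the right panel Smad7, Tgfbr2 and Ski have negative values in both genotypes.

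The 12 library values of each gene window were set beside those of all other windows on other chromosomes, and the most alike, by Pearson's r, was Gxylt2 for Tgfb1 (0.98), Gm13648 for Lrrc32 (0.96), Limk1 for Tgfbr1 (0.98), Gm7860 for Tgfbr2 (0.99), 4732418C07Rik for Smad2 (0.92), Stk4 for Smad3 (0.99), Gm13546 for Smad7 (0.99), Gm13185 for Ski (0.98) and Socs3 for Skil (0.96). The libraries share genotype, state and depth, and each r is the highest of all windows tested.

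The other 36 genes of the pathway (further ligands, latent binding proteins, integrins, receptors and SMADs) showed both directions. Ex vivo 6 windows were higher without Ikaros and 2 lower, where 11.9% and 11.1% of all genes were. The higher ones were Zfyve9, which presents SMADs to the receptor (0.35), the type I receptor Acvr1 (0.34), the integrin Itgav (0.28), Smad1 (0.26), the protease Furin (0.24) and the BMP receptor Bmpr2 (0.19). The lower ones were the ligand Tgfb3 (-0.52) and the co-receptor Tgfbr3 (-0.22). After stimulation 15 were higher and 4 lower, where 35.3% and 27.1% of all genes were. On stimulation 11 rose and 11 fell in WT, where 32.5% and 27.4% of all genes did. In Ikzf1-cko 9 rose and 6 fell, where 21.8% and 9.57% did. The interaction passed for 4 of the 36, where 16.6% of all genes passed in either direction. They were the receptor Acvr2a (0.47), the integrin Itgb8 (0.50), the kinase Map3k7 (0.34) and the latent binding protein Ltbp1 (-0.75). Dependence on the processing was not examined for these 36 genes.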

How the data were processed

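ATAC-seq libraries of 12 samples were assigned to 4 groups by their labels. Per the labels and methods, the authors aligned reads with Bowtie2, removed duplicates and blacklisted regions, called peaks per replicate with MACS2 and merged them. The methods print a human build, but the labels and the mouse regions are mm9. The authors deposited raw read counts on each region in each library. Beside them the authors give FPKM, which was recomputed here as the count over the region's length and the library's summed counts. A second deposited table holds the authors' log2 fold change, F statistic (a score), p-value and FDR of their own comparisons, and was not used.

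Counts were tested with edgeR 4.0.16 in R 4.3.3 (quasi-likelihood, Benjamini-Hochberg adjustment, library totals as scaling, 4 group means over all 12 libraries, 24.4 prior degrees of freedom) on 69957 regions that reached 3.6 CPM in 3 or more libraries, and on 27532 windows of a gene body with 20 kb on either side. Standard errors were derived from the log2 difference and its quasi-likelihood F. The genes and gene lists were chosen with earlier results of these data known. Named regions are, per gene, the one over or nearest to the start, the one with the highest mean CPM, those called ex vivo and, in the other comparisons, the called one with the smallest p in each direction, and others are named as chosen after their values were seen. Alternatives were TMM, loess normalization against abundance (span 0.3), DESeq2 1.42.0, a replicate block, thinning to 4808916 reads, other filters, no fold threshold, limma 3.58.1 on log2(FPKM + 1) and log2(FPKM + 0.1), other windows, and leaving out each library. The study scaled by background bins, for which reads outside the regions would be needed. On simulated counts edgeR recovered 200 of 200 regions changed by a log2 difference of 2, with 3 false calls among 69957, and 197 of 200 windows changed by 1, with 6 false among 27532. The simulation used a common dispersion and, apart from the changed features, equal levels in all groups, with no shift by abundance. It therefore does not bear on region calls near the fold threshold, on the smaller window differences or on the scaling. The methods call the libraries biological replicates. Sequences and gene positions come from the NCBIM37 (mm9) reference. Other steps used Python 3.11.15, pandas 2.3.3, NumPy 2.4.6 and Matplotlib 3.10.9.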

Additional observations from a re-analysis of the deposited data

Results flagged for a closer look

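1 region was set apart because its change on stimulation differed between genotypes in a test of the difference itself. OCR_56592, 13.7 kb upstream of Smad7, fell by 0.87 on the log2 scale in WT and by 0.26 in Ikzf1-cko Treg, an interaction of 0.61 ± 0.15 (edgeR, adjusted p = 0.012). It was past the threshold under 17 of 21 alternatives, and the cause was not tested. Groups of 3 libraries are too small for the test of a sample far from the others.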

How the results depend on the processing

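Without the threshold on the fold, the counts of called regions at the 9 genes were 30 ex vivo, 38 between the stimulated genotypes, 44 and 39 for stimulation in WT and Ikzf1-cko, and 1 for the interaction, in place of 7, 1, 7, 4 and 0. The ex vivo count was 4 under TMM and in limma on log2(FPKM + 1), and 2 with at least 3.6 CPM in all libraries, where fewer regions were tested. The stimulated count was 2 under TMM, in DESeq2, with thinned counts and with no filter, and 0 in limma. For stimulation in WT it was 11 under loess and 4 with at least 3.6 CPM in all libraries, and in Ikzf1-cko 7 with no filter. Leaving out single libraries gave 4 to 11, 1 to 2, 6 to 11, 4 to 5 and 0 to 1. The stimulated count was 2 without replicates 1 or 3 of WT or 2 or 3 of Ikzf1-cko, and the interaction count was 1 without replicate 2 of ex vivo WT. For gene windows it gave 1 to 4, 3 to 6, 4 to 7, 3 to 7 and 0 to 1, in place of 3, 5, 4, 6 and 0, and the interaction count was 1 without replicate 1 of ex vivo WT or replicate 2 of stimulated WT. The window count after stimulation was 3 under TMM, and that of the interaction 2 under loess and 1 with windows of 50 kb.

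Under loess the stimulated genotype difference turned at the windows of Smad3 (-0.30), Smad7 (-0.044), Ski (-0.19) and Skil (-0.091) and at OCR_99333 (-0.13), OCR_116118 (-0.0016), OCR_56670 (-0.21), OCR_56595 (-0.049), OCR_56599 (-0.041), OCR_83931 (-0.11) and OCR_70512 (-0.18). For stimulation in WT it turned at OCR_70512 (0.29) and the windows of Tgfb1 (0.17) and Skil (0.13). The cause was not tested.

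Deviations of same-numbered libraries from their group means correlated between -0.355 and 0.284 over all pairs of groups. Between ex vivo and stimulated libraries of a genotype, same numbers gave -0.345 to 0.214 and different numbers -0.266 to 0.402. With 3 libraries per group the deviations are bound to one another, so these values cannot decide whether libraries shared a sort. With the replicate block the counts were 6, 1, 7, 4 and 0 for regions, OCR_99337 being lost at 0.999, and 2, 5, 4, 6 and 0 for windows. The methods divide sorted cells between ex vivo and stimulated states, but no source ties the numbers to sorts. Calls on regions of few reads remain uncertain, and several were lost under alternatives. Most of the signs that turned under loess were those of genotype differences after stimulation, while TMM also moved the ex vivo calls.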
